A study of Rattus norvegicus with 12 samples.

Results

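The genes described here handle vitamin A and its hormone-like product, retinoic acid: Lrat, Aldh1a1, Aldh1a2, Crabp1, Crabp2, Cyp26a1, Cyp26b1, Rara and Rxrg. They were chosen by gene name, taking every non-control probe of the array that carries 1 of these 9 names. All 9 genes were found, on 10 of the 30367 probes, since Lrat has 2 probes. The material was pituitary tissue of Wistar rat fetuses of both sexes, taken on gestational day 18 from dams with or without exposure to TCDD (2,3,7,8-tetrachlorodibenzo-p-dioxin), the prototype dioxin that binds the aryl hydrocarbon receptor. Total RNA was labelled with Cy3 and hybridised to one-colour 60-mer whole-genome arrays, 3 in each of 4 groups: control and TCDD males, and control and TCDD females. The labels give neither the dose, the day of dosing nor what the control dams received. They also leave unsaid whether an array holds 1 gland or a pool and which fetuses shared a litter, so p-values measure the spread between these samples. The question, as the series title puts it, is what dioxin given to the mother does to pituitary transcripts of the fetus.

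Retinol is stored as retinyl esters that lecithin retinol acyltransferase (Lrat) makes. It is otherwise oxidised to retinaldehyde and then, by the aldehyde dehydrogenases Aldh1a1 and Aldh1a2, to retinoic acid. Retinoic acid is held in the cytoplasm by Crabp1 and Crabp2, broken down by the cytochromes Cyp26a1 and Cyp26b1, and read in the nucleus by retinoic acid receptors such as Rara paired with retinoid X receptors such as Rxrg. Disturbed vitamin A storage is a classical effect of dioxins in the liver of adult animals, and in the developing pituitary retinoic acid acts on the endocrine cells and their progenitors.

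Aldh1a1 and Rxrg were the 2 genes of the 9 with every exposed array above every control array. Aldh1a1 was 2.04-fold higher in the exposed pituitaries (log2 1.03, SE 0.15) and Rxrg 1.41-fold higher (log2 0.49, SE 0.085), over 6 exposed and 6 control arrays. The mean of Crabp1 was also higher, by 0.79 on the log2 scale (SE 0.23), and that of Cyp26b1 lower (log2 -0.77, SE 0.25), but with overlapping arrays. No member passed an adjusted p of 0.05 over all 19350 genes in limma: the smallest adjusted p over both sexes was 0.079, for Aldh1a1, and the next was 0.145, for Rxrg. The remaining members, Lrat, Aldh1a2, Crabp2, Cyp26a1 and Rara, had 95% intervals of the difference that included 0.

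The number of calls is small for the array as a whole, which sets the background for these counts. The members were chosen with earlier results of these data known, so the shares below are no test of the list as a set. Over both sexes limma called 4 of 19350 genes (0.0207%), and 0 of the 9 members. In males it called 2 genes (0.0103%) and in females 2 (0.0103%), again with 0 members. At an unadjusted p under 0.05 over both sexes, 4 of the 9 members passed (Aldh1a1, Rxrg and Crabp1 higher, Cyp26b1 lower), beside 6.45% of all genes (2.91% higher and 3.55% lower). In males the same 4 members passed, beside 9.4% of genes (6.47% higher and 2.94% lower), and in females Aldh1a1 and Rxrg, beside 2.64% (0.667% higher and 1.97% lower). The median difference of the 9 members was -0.13 against -0.02 over all genes, with 4 members above 0 and 5 below, beside 44.6% of all genes above 0. Complete separation of the 6 exposed from the 6 control arrays in the higher direction held for 2 members and for 0.222% of all genes, and in the lower direction for 0 members and 0.217% of genes.

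Exposure and tissue were checked on genes outside the list. Ahrr, the receptor's repressor and a direct target, rose by 5.92 on the log2 scale (SE 0.25, adjusted p = 5.27e-06 in limma), and Cyp1a1 was well above background on 6 of 6 exposed and 0 of 6 control arrays. Of 14 pituitary markers, 13 were measured, and between 11 and 13 of them lay well above background on each array. Genes of sensory ganglion neurons, a tissue that lies beside the gland, were high on 6 arrays. These were male control 2 and female control 2 among the controls, and male TCDD 1 and 2 and female TCDD 1 and 3 among the exposed. Comparisons without these 6 arrays therefore rest on male TCDD 3 as the only exposed male and female TCDD 2 as the only exposed female. The mean level of the 21 measured ganglion markers was 0.38 to 1.81 on those 6 arrays and -3.45 to -2.85 on the other 6. The marker list was written after an earlier look at these arrays, and 4 exposed but only 2 control arrays carried the signal. Male TCDD 1 had the highest ganglion level and the lowest summed level of the pituitary markers (89.0, against 106 to 246 on the others, in multiples of the 75th percentile signal). The summed level of 10 markers of meninges and mesenchyme was also lowest there, at 82.0. Over both sexes the exposed-minus-control difference was above 0 for 21 of 21 ganglion markers (median 1.41) and 6 of 6 peripheral glia markers (median 0.84), and below 0 for 12 of 13 pituitary markers (median -0.45), with 0 genes of these lists called in limma and 0, 0 and 7 at an unadjusted p under 0.05. Their part in the values of the 9 retinoid genes was not tested beyond the comparisons given with each gene. In bulk tissue such as this, fewer cells of a type and less RNA per cell cannot be told apart.

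The promoters of Aldh1a1, Rxrg and Cyp26a1 are shown because the first pair carried the clearest separation between exposed and control arrays and Cyp26a1 is the textbook gene switched on by retinoic acid. Each line is the 250 bases that end just before the RefSeq start of the gene on the GRCr8 build, read on the gene's strand. The positions are chr1:227537370-227537619 (plus strand) for Aldh1a1, chr13:82276237-82276486 (plus strand) for Rxrg and chr1:244883572-244883821 (plus strand) for Cyp26a1. Capitals mark 2 motifs searched on both strands: the core of the dioxin response element, GCGTG, and a direct repeat with 5 bases between its half-sites, the arrangement that retinoic acid receptors bind. A half-site was taken to be AGGTCA, or with a changed letter GGGTCA, or else AGTTCA, or lastly GGTTCA.
Aldh1a1: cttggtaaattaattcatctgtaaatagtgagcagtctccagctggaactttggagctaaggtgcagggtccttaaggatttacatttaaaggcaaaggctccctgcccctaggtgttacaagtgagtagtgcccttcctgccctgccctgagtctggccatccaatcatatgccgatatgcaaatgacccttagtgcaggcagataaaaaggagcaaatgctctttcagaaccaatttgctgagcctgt
Rxrg: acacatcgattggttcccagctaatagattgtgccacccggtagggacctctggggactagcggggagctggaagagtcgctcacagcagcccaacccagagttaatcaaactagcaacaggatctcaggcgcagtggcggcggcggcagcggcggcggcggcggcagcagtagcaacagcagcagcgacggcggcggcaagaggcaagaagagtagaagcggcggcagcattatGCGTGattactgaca
Cyp26a1: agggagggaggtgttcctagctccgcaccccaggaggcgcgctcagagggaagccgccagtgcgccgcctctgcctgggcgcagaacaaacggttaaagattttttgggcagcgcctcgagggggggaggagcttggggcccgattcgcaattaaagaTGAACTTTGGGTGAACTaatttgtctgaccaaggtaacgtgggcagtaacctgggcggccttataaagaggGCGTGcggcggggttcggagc

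The Cyp26a1 promoter held the direct repeat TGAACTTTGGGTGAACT, which lies on the minus strand and starts 92 bases before the gene. None of the other 8 members had it, and 0.326% of 33469 promoters of the same length did. The same half-sites with 2 bases between were in 0 members and in 0.137% of promoters. The GCGTG core was in 7 of the 9 member promoters, once in each, and in 25.9% of all promoters. The Aldh1a1 and Rara promoters had no match, and the Rxrg promoter had 1, which starts 15 bases before the gene. The motifs marked in these 3 promoters do not overlap, and for comparison the Ahrr promoter held 3 GCGTG cores.

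The levels that follow are log2 values of the processed intensity after subtraction of the array's own 75th percentile, so 0 is a bright signal and -4 a dim one. They compare arrays for 1 probe and not probes with each other. All 9 probes from which the members were read lay well above background on 12 of 12 arrays, and positions of probes are on the rn4 build. Where a probe lies within its gene (coding exon or untranslated end) was not analysed here.

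**Figure D1:**
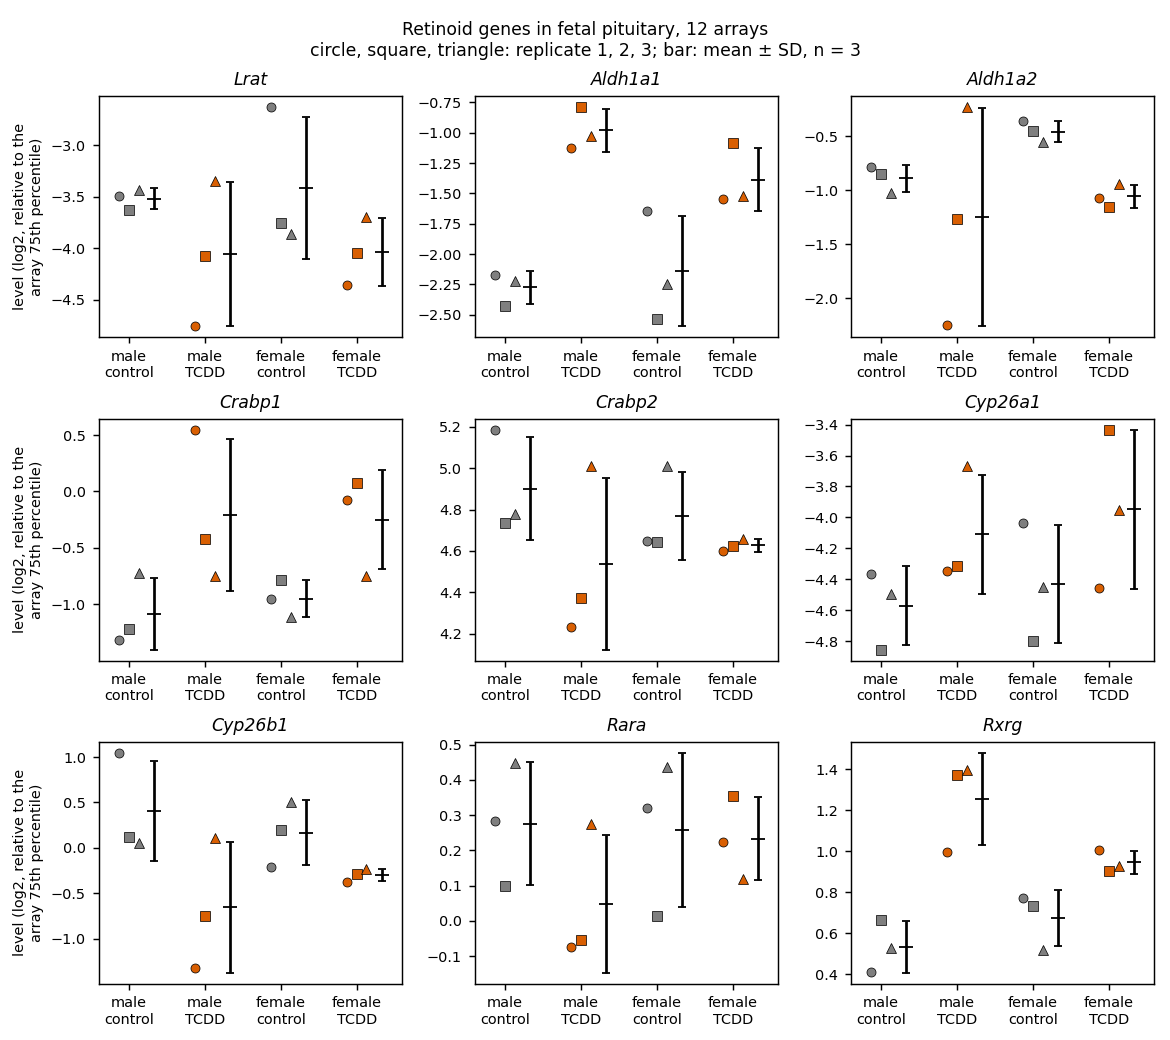
Level of each of the 9 retinoid genes on the 12 arrays, as log2 signal above or below the array's 75th percentile (vertical axis), by group (horizontal axis); points are arrays and bars are group means with SD of 3 arrays. For Aldh1a1 the exposed arrays lie between -1.55 and -0.78 and the controls between -2.53 and -1.64, and for Rxrg the exposed arrays lie between 0.90 and 1.40 and the controls between 0.41 and 0.77.

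Storage was read from Lrat, the enzyme that makes retinyl esters. Its probe at chr2:174636541-174636600 (minus strand) gave -3.49, -3.63 and -3.43 in male controls and -4.75, -4.07 and -3.35 in exposed males. In females it gave -2.62, -3.76 and -3.86 in controls and -4.36, -4.05 and -3.70 after exposure. Male TCDD 1 was the lowest of the 12 arrays and female control 1 the highest, 4 exposed arrays lay below every control, and male TCDD 3 and female TCDD 3 lay among the controls. The mean was lower by 1.49-fold in the exposed arrays (log2 -0.58, SE 0.27, 95% interval -1.18 to 0.026, unadjusted p = 0.0588 and adjusted p = 0.67 in limma). Without female control 1 the log2 difference over both sexes was -0.38, and without the 6 arrays with ganglion signal it was -0.35.

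Lrat also has a second probe, at chr2:174644763-174644822 (minus strand), which did not enter the fits because it was well above background on 1 of 12 arrays only. Its 60 bases are printed because the values of the gene depend on which of its probes is read.
Lrat second probe: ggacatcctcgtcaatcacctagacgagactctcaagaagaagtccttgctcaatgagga

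On this probe the array above background was male TCDD 2, at -6.48, and the other 11 arrays lay between -9.20 and -6.56. The highest of those was female control 1, the array that was also highest on the brighter probe. The dim probe therefore gives no separate measure of Lrat in 11 of the 12 samples.

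Synthesis of retinoic acid was read from Aldh1a1 and Aldh1a2, and the 2 enzymes differed. Aldh1a1, the cytosolic retinaldehyde dehydrogenase that also oxidises other aldehydes, was read at chr1:223773152-223773211 (plus strand). Its level was -2.18, -2.43 and -2.22 in male controls and -1.13, -0.78 and -1.03 in exposed males. In females it was -1.64, -2.53 and -2.25 in controls and -1.55, -1.09 and -1.52 in the exposed. All 6 exposed arrays were higher than all 6 controls, with a gap of 0.095 between the highest control, female control 1, and the lowest exposed array, female TCDD 1. The gene ranked 11 of 19350 by p over both sexes (95% interval of the log2 difference 0.69 to 1.36, unadjusted p = 4.49e-05, adjusted p = 0.079 in limma).

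The mean of Aldh1a1 was 2.46-fold higher in males (log2 1.30, SE 0.22, adjusted p = 0.182 in limma) and 1.69-fold in females (log2 0.76, SE 0.22, unadjusted p = 0.00542, adjusted p = 1.00). The difference between these effects, 0.54, had a 95% interval of -0.14 to 1.22 and unadjusted p = 0.106. Because every exposed array was above every control, any split of the arrays keeps that order, so the ganglion split is no separate test of it. Exposed arrays with the signal lay between -1.55 and -0.78 and those without it between -1.09 and -1.03, while control arrays lay between -2.53 and -2.43 with it and between -2.25 and -1.64 without. The difference over both sexes passed the adjusted threshold when female control 1 was left out (log2 1.15, adjusted p = 0.0142) and when the mean of the ganglion markers was a covariate (log2 1.13, adjusted p = 0.0254), and in no other alternative run, where adjusted p reached 1.00. Within single slides the difference was 1.15 for males on slide 1, where 1 exposed array met 3 controls, and 0.86 for females on slide 3, where 3 exposed arrays met 1 control.

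Aldh1a2, the retinaldehyde dehydrogenase of mesenchyme and meninges and the main source of retinoic acid in early embryos, was read at chr8:75771061-75771120 (plus strand). In males it was -0.79, -0.85 and -1.03 in controls and -2.25, -1.27 and -0.23 in exposed samples. In females it was -0.36, -0.45 and -0.55 in controls and -1.07, -1.15 and -0.95 in exposed samples. The 3 exposed females thus lay below the 3 female controls within a narrow range, whereas exposed males ran from the lowest to the highest value of all 12 arrays. The log2 difference was -0.60 (SE 0.38) in females and -0.36 (SE 0.38) in males, and -0.48 (SE 0.27, unadjusted p = 0.1, adjusted p = 0.67 in limma) over both sexes. The value over both sexes was -0.0063 without the 6 arrays with ganglion signal, -0.23 without male TCDD 1, and -0.74 without male TCDD 3. It was -0.93 with slide as a fixed block, where male TCDD 1 is the only exposed male and female control 3 the only female control. The male value turned to 0.14 without male TCDD 1 and to 0.68 without the arrays with ganglion signal. The latter value rests on male TCDD 3 as the only exposed male, the highest of the 12 arrays for this gene. Against the male controls of its own slide, male TCDD 1 gave -1.36. That comparison holds 1 exposed array, so no spread among exposed arrays enters it. The summed mesenchyme and meninges markers, which were 132 to 138 in male controls, 82.0 to 151 in exposed males, 129 to 154 in female controls and 120 to 190 in exposed females, were likewise lowest in male TCDD 1. Their part in the Aldh1a2 values was not tested.

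The binding proteins also differed from each other. Crabp1, which holds retinoic acid in the cytoplasm of neural crest derivatives and neurons among other cells, was read from a probe whose ends map to chr8:58320823-58325131 (plus strand), a span of 4309 bases, so that the 60 bases come from more than 1 exon. It is printed because it is 1 of 2 member probes spotted 10 times on each array.
Crabp1 probe: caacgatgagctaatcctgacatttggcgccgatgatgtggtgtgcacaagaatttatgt

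Crabp1 was -1.31, -1.22 and -0.72 in male controls and 0.55, -0.42 and -0.75 in exposed males. It was -0.95, -0.78 and -1.11 in female controls and -0.073, 0.072 and -0.75 in exposed females. Female groups did not overlap, male groups did, and 4 of the 6 exposed arrays were above the highest control, male control 3. The means differed by 1.72-fold (log2 0.79, SE 0.23, 95% interval 0.28 to 1.29, unadjusted p = 0.00599, adjusted p = 0.67 in limma), with 0.87 in males and 0.70 in females. The 10 spots of the probe varied within an array with an SD of 0.039 to 0.073 on the log2 scale, while the 12 array means had an SD of 0.56.

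The highest Crabp1 level was that of male TCDD 1, the array with the most ganglion signal. Without that array the male difference was 0.50. Without all 6 arrays with the signal, which leaves a single exposed male, it was 0.27. With slide as a fixed block it was 1.63, a value that rests on male TCDD 1 as the only exposed male. Over both sexes the corresponding differences were 0.60, 0.69 and 1.25. The part of the ganglion signal in the Crabp1 values was not tested beyond these comparisons.

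Crabp2, which carries retinoic acid to its nuclear receptor, had the brightest signal of the members (intensity 21284 to 34273) and was read at chr2:180033998-180034057 (plus strand). Its level was 5.18, 4.74 and 4.78 in male controls and 4.23, 4.37 and 5.01 in exposed males. In females it was 4.65, 4.64 and 5.01 in controls and 4.60, 4.62 and 4.66 after exposure. Male TCDD 1 and 2 were the lowest arrays, both sexes overlapped, and the exposed females were nearly alike (SD 0.03). The log2 difference was -0.25 (SE 0.14, 95% interval -0.56 to 0.06, unadjusted p = 0.0992, adjusted p = 0.67 in limma) over both sexes. It was -0.090 (SE 0.17) without the arrays with ganglion signal and -0.53 with slide as a fixed block. Male TCDD 1, the lowest array for Crabp2, is the only exposed male behind the latter value.

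Breakdown of retinoic acid was read from 2 cytochromes whose means differed in opposite directions. Cyp26a1, a gene strongly induced by retinoic acid and the one whose promoter holds the direct repeat, was read at chr1:241945651-241945710 (minus strand in rn4, per the files) and was dim (intensity 32.6 to 88.3). It gave -4.36, -4.85 and -4.49 in male controls and -4.35, -4.31 and -3.66 in exposed males. In females the values were -4.04, -4.80 and -4.45 in controls and -4.46, -3.43 and -3.95 in the exposed. The exposed males lay just above the male controls, with 0.02 between the nearest arrays, while the females overlapped. The difference was 1.39-fold (log2 0.47, SE 0.21, 95% interval -0.0023 to 0.95, unadjusted p = 0.0509, adjusted p = 0.67 in limma). It depended on the background correction: normexp on the raw signals, which adds an offset of 50 to these dim values, gave 0.18, and without the arrays with ganglion signal it was 0.79.

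Cyp26b1, the retinoic acid hydroxylase of mesenchyme and brain, was read at chr4:118735314-118735373 (minus strand). It gave 1.05, 0.12 and 0.059 in male controls and -1.32, -0.75 and 0.11 in exposed males. Female controls gave -0.21, 0.20 and 0.51, and exposed females -0.37, -0.29 and -0.24. Below every control lay 5 of the 6 exposed arrays, and only male TCDD 3 fell among them. The difference over both sexes was -0.77 (SE 0.25, 95% interval -1.33 to -0.20, unadjusted p = 0.0123, adjusted p = 0.67 in limma), a mean 1.70-fold lower, with -1.06 in males and -0.47 in females (-0.30 without female control 3).

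As for Crabp1, the Cyp26b1 probe had 10 spots on an array, whose SD was 0.034 to 0.081, against 0.60 for the 12 array means. The 2 lowest arrays, male TCDD 1 and 2, had the 2 highest ganglion levels. Exposed arrays with ganglion signal lay between -1.32 and -0.24 and those without it at -0.29 and 0.11, while controls lay at 0.12 and 0.20 with it and between -0.21 and 1.05 without it. The difference was -0.44 without the arrays with ganglion signal and -1.27 with slide as a fixed block. The latter value rests on male TCDD 1, the lowest array, as the only exposed male. Its only female control is female control 3, the highest of that group.

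The receptors were read from Rara and Rxrg. Rara, the broadly expressed retinoic acid receptor alpha, was read at chr10:87753153-87753212 (plus strand). It gave 0.28, 0.098 and 0.45 in male controls, -0.073, -0.055 and 0.27 in exposed males, 0.32, 0.015 and 0.44 in female controls, and 0.23, 0.35 and 0.12 in exposed females. The groups overlapped in both sexes. The difference of -0.13 (SE 0.10, 95% interval -0.35 to 0.10, unadjusted p = 0.237, adjusted p = 0.672 in limma) was the smallest of the 9 in size. It was -0.017 with the ganglion marker mean as covariate, -0.08 without male control 3 or without female control 3, and -0.28 with slide as a fixed block. Male TCDD 1, the lowest array for Rara, is the only exposed male behind the last value.

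Rxrg, the retinoid X receptor with the most restricted distribution, known from thyrotropes of the pituitary, skeletal muscle and parts of the brain, was read at chr13:83298626-83298685 (plus strand). It gave 0.41, 0.67 and 0.53 in male controls and 1.00, 1.37 and 1.40 in exposed males. In females it gave 0.77, 0.73 and 0.52 in controls and 1.01, 0.90 and 0.93 after exposure. All 6 exposed arrays were above all 6 controls, by 0.13 between the nearest pair, female control 1 and female TCDD 2. The gene ranked 20 of 19350 by p (95% interval of the log2 difference 0.31 to 0.68, unadjusted p = 0.00015, adjusted p = 0.145 in limma).

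In males the mean of Rxrg was 1.65-fold higher (log2 0.72, SE 0.12, adjusted p = 0.182 in limma) and in females 1.21-fold (log2 0.27, SE 0.12, unadjusted p = 0.0483, adjusted p = 1.00). With ganglion signal the exposed arrays lay between 0.93 and 1.37 and without it between 0.90 and 1.40, while controls lay between 0.67 and 0.73 with it and between 0.41 and 0.77 without. As for Aldh1a1, complete separation of the arrays fixes this order in advance. The difference over both sexes ranged from 0.44 to 0.59 over the alternatives and passed the adjusted threshold in 1 of them, without male TCDD 1 (log2 0.56, adjusted p = 0.0359). Markers of tissues with Rxrg were read beside it. Of the thyrotrope genes, Tshb differed by -0.76 (SE 0.20) and Cga, shared with gonadotropes, by -0.50 (SE 0.21), each with an adjusted p of 0.67 in limma. The summed level of 8 skeletal muscle markers was 0.57 to 1.04 in male controls, 0.46 to 0.53 in exposed males, 0.63 to 1.29 in female controls and 0.56 to 0.89 in exposed females. The part of either cell type in the Rxrg values was not tested.

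**Figure D2:**
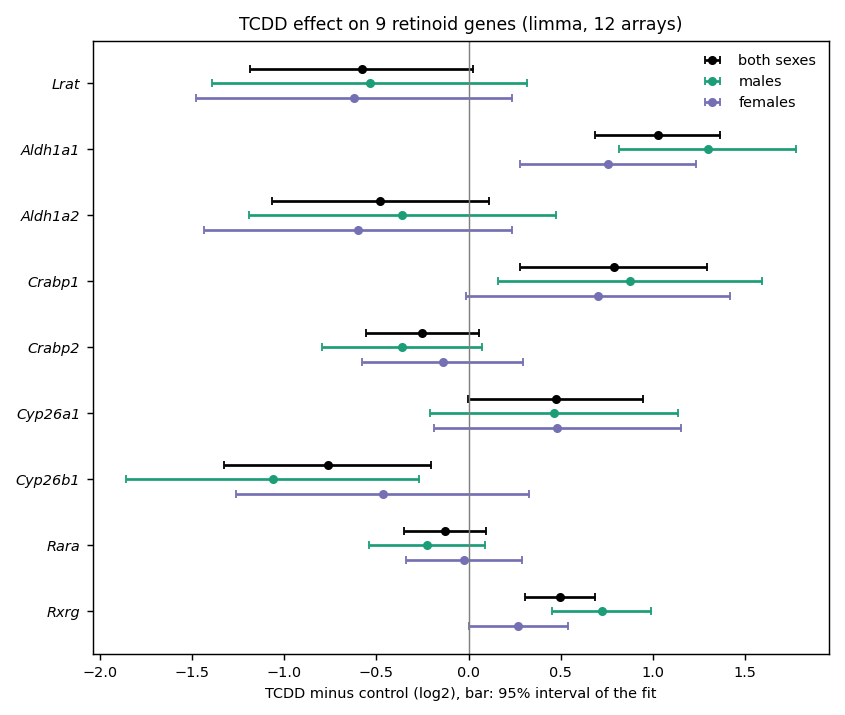
Difference between exposed and control arrays for each of the 9 genes on the log2 scale (horizontal axis) over both sexes, in males and in females; points are limma estimates and lines their 95% intervals. Over both sexes the intervals of Aldh1a1, Rxrg and Crabp1 lie above 0, that of Cyp26b1 below 0, and the others include 0.

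The sexes were compared directly. Of the 9 members, 1 had an unadjusted p under 0.05 for the difference of the TCDD effect between males and females, against 4.47% of all genes (3.9% larger and 0.568% smaller in males): Rxrg, whose effect was larger in males by 0.45 (95% interval 0.074 to 0.83, unadjusted p = 0.0237, adjusted p = 0.881 in limma). Each slide held arrays of 2 groups. With slide as a fixed block this Rxrg value was 0.036. That value rests on male TCDD 1 as the only exposed male and female control 3 as the only female control. With slide as a random block the value was 0.32 (unadjusted p = 0.0939 in limma). The unadjusted p of this Rxrg difference also rose above 0.05 when male control 1, male TCDD 2, male TCDD 3 or female control 1 was left out, with values of 0.38 to 0.40. No gene of the 19350 was called for this difference, and 864 had an unadjusted p under 0.05. Exposed and control arrays of 1 sex did not overlap for 3 members in males (Aldh1a1, Rxrg and Cyp26a1, all higher) and for 5 in females (Aldh1a1, Rxrg and Crabp1 higher, Cyp26b1 and Aldh1a2 lower), beside 14.5% and 6.96% of all genes. By direction these shares were 8.53% for all exposed males higher, 1.49% for all exposed females higher and 5.47% for all exposed females lower. Both sexes separated in the same direction for 0.326% of genes higher, which include Aldh1a1 and Rxrg, and for 0.372% lower, which include no member. In control arrays the 9 genes differed between males and females by -0.43 (Aldh1a2) to 0.24 (Cyp26b1), 0 were called beside 2 of all genes (0.0103%), 0 had an unadjusted p under 0.05 beside 5.51%, and the smallest unadjusted p was 0.267. All male controls were on slide 1 and the female controls on slides 2 and 3, so sex and slide are separated here only through the exposed arrays. With slide as a fixed block 0 members were called and 3 had an unadjusted p under 0.05: Cyp26b1 (1.41), Aldh1a2 (1.02) and Crabp1 (-1.35), each with an adjusted p of 0.416 in limma. These values depend on male TCDD 1, the only exposed array on the slide of the male controls. It was the lowest array for Cyp26b1 and Aldh1a2 and the highest for Crabp1.

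Across the 12 arrays, male TCDD 1 was at an extreme for 6 of the 9 members. It was the lowest array for Lrat, Aldh1a2, Crabp2, Cyp26b1 and Rara, beside 31.5% of all genes, and the highest for Crabp1, beside 22.4%. For Aldh1a1, Rxrg and Cyp26a1 it was not at an extreme. Over all genes it was at 1 end or the other for 54.0%.

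**Figure D3:**
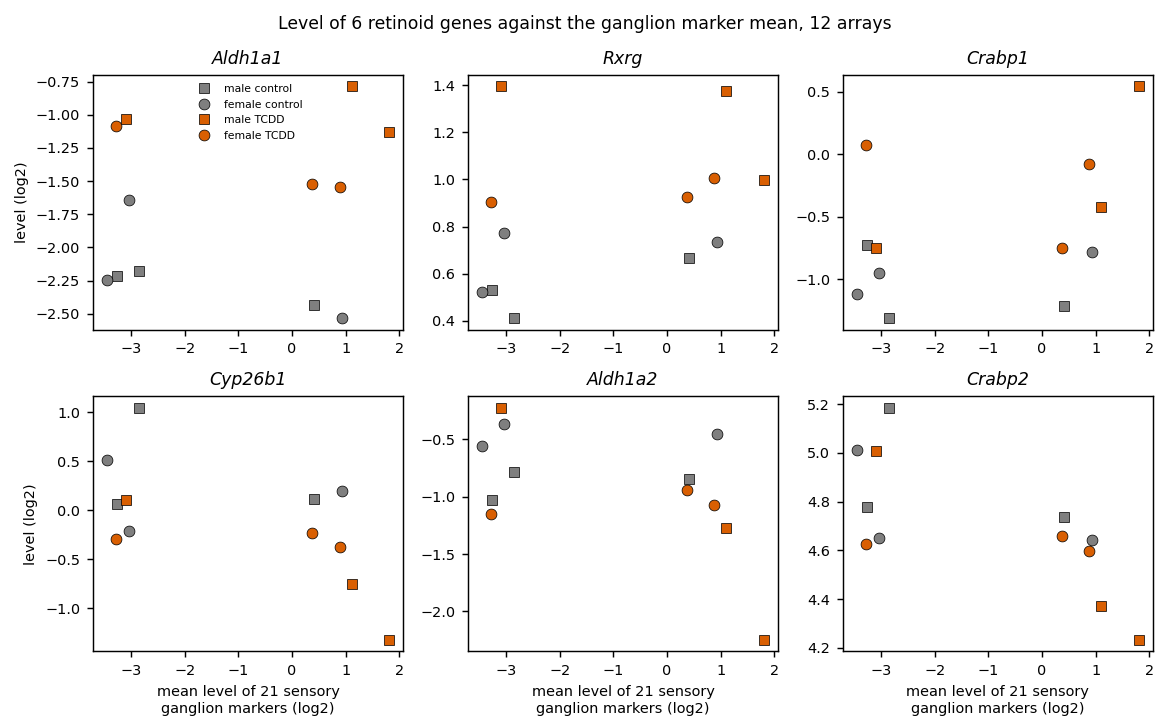
Level of 6 of the genes (Aldh1a1, Rxrg, Crabp1, Cyp26b1, Aldh1a2 and Crabp2) against the mean level of 21 ganglion markers on the same array (horizontal axis), with 1 point for each of the 12 arrays. The vertical axis is log2 signal above or below the array's 75th percentile, and the horizontal axis has the same scale. The 6 arrays with ganglion signal lie between 0.38 and 1.81 on the horizontal axis and the others between -3.45 and -2.85. For Aldh1a1 and Rxrg all exposed arrays stand above all controls, and therefore also within each side.

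The rest of the pathway was described from 3 lists. Of 29 other genes of retinoid metabolism and transport, 23 were measured, 0 were called in either sex or over both, and at an unadjusted p under 0.05 over both sexes 1 was higher and 3 lower (median difference -0.0083). Of 13 other receptors and cofactors 12 were measured, 0 were called, and 1 was lower at that level (median -0.0077). Of 19 genes known to respond to retinoic acid 9 were measured, 0 were called and 1 was higher (median -0.0083). All genes together had a median of -0.02, and the shares of all genes at that level stand with the members' counts.

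In the first list the 4 genes with the smallest p were Rbp3, Aldh1a7, Rbp4 and Rdh14. Rbp4, the carrier of retinol in plasma, lay between 1.38 and 1.94 in controls and between -0.26 and 1.39 in exposed arrays, with male TCDD 3 the single exposed array that reached the controls. The difference was -0.81 (SE 0.24, unadjusted p = 0.00688, adjusted p = 0.67 in limma). With slide as a fixed block the male difference was -1.87, from male TCDD 1 alone against the male controls. Rbp3, the retinol carrier of photoreceptor and pineal tissue, was well above background on 3 of 3 male controls, 1 of 3 female controls and 0 of 6 exposed arrays, so its exposed level has only an upper bound. Against that bound, taken for each array as the lowest signal well above background, Rbp3 was at least 1.31-fold lower in exposed males (adjusted p over both sexes = 0.412 in limma), and no fold is given for females, where the bound lay above the control mean. Rdh14, a retinol dehydrogenase, differed by -0.12 (unadjusted p = 0.0474).

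Aldh1a7 is a close paralog of Aldh1a1, and its values were in the same direction. It lay between -7.22 and -5.34 in controls and between -6.54 and -3.99 in exposed arrays, and was well above background on 6 of 6 exposed arrays but only on male control 1 and female control 1 among the controls. With 4 of 6 controls not well above background, the fitted difference of 1.37 (adjusted p = 0.67 in limma) is uncertain in size. The 60-base probes of the 2 paralogs share at most 21 identical bases in any ungapped alignment, with a longest common run of 6.

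Among receptors and cofactors the smallest p was that of Ncoa1, a coactivator of nuclear receptors, at -0.14 (unadjusted p = 0.0421, adjusted p = 0.67 in limma), followed by Nr2f1 (0.11), Ncoa3 (-0.08) and Nr2f2 (0.05). Among the response genes it was that of Hoxa2, a hindbrain patterning gene, which was 0.96 higher (SE 0.35, unadjusted p = 0.0199, adjusted p = 0.67 in limma) with overlapping arrays (-6.04 to -4.05 in controls, -4.87 to -3.01 in exposed arrays). The homeobox genes Meis1 (0.73) and Meis2 (0.68) had their highest levels on male TCDD 1 and 2, the arrays with the most ganglion signal. Rarres1 differed by -0.31. Against the male controls of its own slide, male TCDD 1 differed by 1.58 for Meis1 and by 1.08 for the retinol-binding protein gene Rbp2. This again compares 1 exposed array, with no spread among exposed arrays.

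**Figure D4:**
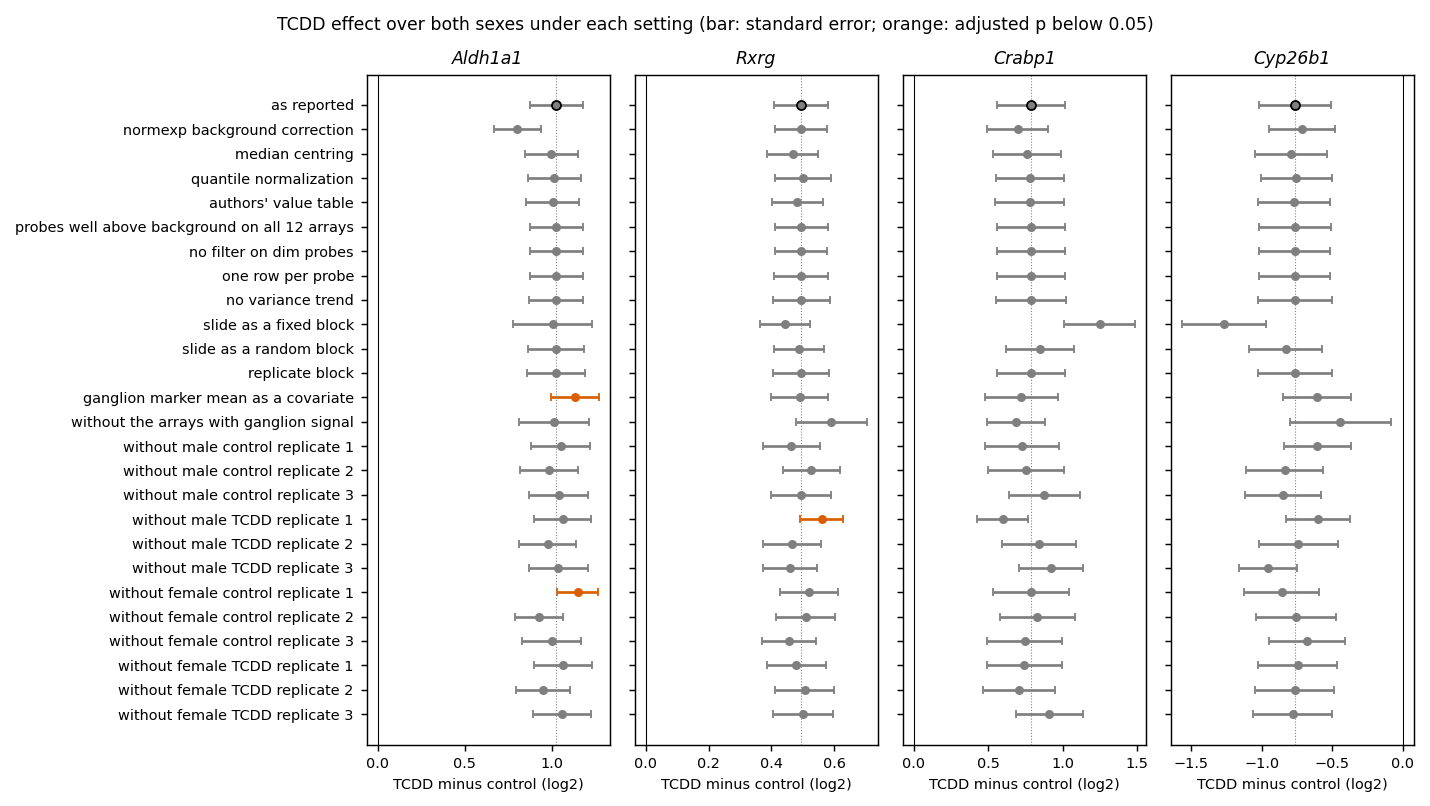
Difference between exposed and control arrays over both sexes for Aldh1a1, Rxrg, Crabp1 and Cyp26b1 on the log2 scale (horizontal axis) under the main processing and each alternative, with 1 point for each processing. None of these genes changes sign over both sexes, and Aldh1a1 ranges from 0.80 to 1.15 and Rxrg from 0.44 to 0.59.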

How the data were processed

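The members and gene lists were chosen with earlier results of these data known. The authors deposited scanner files with spot intensity on a linear scale, written by Agilent Feature Extraction 10.7.1.1 per the file headers (9.5.1.1 per the submitters' processing notes). The background-corrected processed intensity was used; control and outlier-flagged spots were left out, and log2 values had the array's 75th percentile subtracted. Spots of a probe were averaged. Of 30367 probes, 22430 were kept (well above background on at least 3 of 12 arrays, at least 10 values), and the brightest kept probe stood for its gene. Each array had 42877 non-control spots, 75.1% to 78.4% of them well above background and 0 saturated; the number of arrays limits the precision. All p-values of genes come from limma 3.58.1 in R 4.3.3, fitted on 12 arrays with 1 mean per group and a variance trend, with Benjamini-Hochberg adjustment over 19350 genes and a threshold of 0.05. The fit was tested on simulated data. Effects over both sexes are the mean of the male and female effects.

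Named genes were all members, Ahrr and Cyp1a1, list genes that were called, and the 4 genes of smallest p in each retinoid list. Probe names came from the reference table for 18006 probes by accession and 3213 by symbol; 9148 kept the file's name. The authors' deposited value table holds intensity values whose columns share a median of 83.5 and rank probes as the scanner values do; it was taken as linear and quantile normalised, which no source used here states, and served as an alternative. Promoters came from RefSeq (GRCr8), which matched 9 of 9 members. Alternatives covered background correction, scaling, filters, slide, replicate numbers, ganglion signal and each array left out.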

Additional observations from a re-analysis of the deposited data

Results flagged for a closer look

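The second Lrat probe, which entered none of the comparisons, was well above background on male TCDD 2 alone, at -6.48 (log2, with the 75th percentile of the array at 0). The highest control, female control 1, was at -6.56 and not well above background.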

How the results depend on the processing

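Over both sexes no difference of a member changed sign in the 25 alternatives, but some came close to 0: Aldh1a2 was -0.0063 without the arrays with ganglion signal, and Rara was -0.017 with the ganglion covariate. Over the values of single members in all comparisons, 680 of 693 kept direction and side of the threshold, 4 passed it newly and 9 reversed. Those that passed were Aldh1a1 over both sexes with a covariate for the mean of the ganglion markers (log2 1.13) and without female control 1 (1.15), Rxrg without male TCDD 1 (0.56), and Aldh1a2 in males within slide 1 (-1.36). Members called over both sexes were thus 1 with that covariate and 0 to 1 with single arrays left out, and in males 1 within slide 1, against 0 in the main processing. Reversed values were, in males without the arrays with ganglion signal, Lrat 0.12, Aldh1a2 0.68 and Crabp2 0.027, each from a single exposed male. With single arrays left out, Aldh1a2 in males ran from -0.87 to 0.14 and Rara in females from -0.15 to 0.065. Rara in females was also 0.010 with normexp correction and 0.060 with the ganglion covariate; the cause was not tested.

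Genes called over both sexes were 4 in the main processing, 15 with slide as a fixed block, 2 with the replicate block, 11 with the ganglion covariate, 0 without the arrays with ganglion signal (540 at an unadjusted p under 0.05, with 6 arrays fewer) and 4 to 9 with single arrays left out (9 when male TCDD 1 was dropped, 7 for female control 1 and 7 for male TCDD 3). In males they were 2, then 1 with normexp, 1 with only probes that were well above background on 12 arrays, 4 without the variance trend, 27 with slide as a fixed block, 4 with the covariate, 0 without the signal arrays (939 unadjusted) and 277 within slide 1, where a single exposed array was assumed to vary like the other groups. In females the genes called were 2, then 1 with normexp and 1 with the 12-array filter. Female counts without the signal arrays (a single exposed female) and within slide 3 (a single female control) are likewise not given. For the difference between sexes the genes called were 0, and 6 with slide as a fixed block. For male against female controls they were 2, then 1 with normexp, 1 with the 12-array filter and 10 with slide as a fixed block. All counts are from limma.

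Same-numbered control and exposed arrays correlated between -0.70 and 0.44 in their deviations from the group means, so the numbers were not taken as pairs, and the replicate block called 0 members. Between same-numbered males and females the correlation was 0.13 to 0.75 in controls and -0.39 to 0.65 in exposed arrays. Whether these shared a litter is not given, and the fit over both sexes treats all arrays as independent. Each slide held 4 arrays from 2 of the 4 groups, so slide and group are only partly separable; as a random block slide had a correlation of 0.19. Dim signals limit Lrat and Cyp26a1 most.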
